A study of Mus musculus with 9 samples.

Results

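The genes described here encode 10 antioxidant enzymes that remove superoxide and peroxides: the peroxiredoxins Prdx1, Prdx2, Prdx3, Prdx4, Prdx5 and Prdx6, the superoxide dismutases Sod1 and Sod2, catalase (Cat) and the glutathione peroxidase Gpx1. They were taken by gene symbol from a deposited count table of 23317 rows, where all 10 were present, and all 10 passed the filter on low counts. RNA was sequenced from haematopoietic stem cells (HSC) sorted from femur and tibia marrow of wild-type mice, 1500 cells to a library. The groups were young HSC, old HSC, and old HSC treated with ABC294640, given by the series as an inhibitor of the sphingosine kinase SphK2, with 3 libraries each. Per the labels' protocols the mice were 2 to 4 or 20 to 24 months old, the younger range being taken for young and the older for old HSC. The sources used here do not give the sort markers, the dose, route and duration of the inhibitor, or whether a vehicle was used. Nothing in the labels says that libraries of a group came from separate mice, so p-values measure the spread between these libraries, which may be technical.

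Superoxide leaks from the respiratory chain and is made by NADPH oxidases. Superoxide dismutases turn it into hydrogen peroxide, Sod1 mainly in the cytosol and Sod2 in the mitochondrial matrix, and catalase in the peroxisome, Gpx1 and the peroxiredoxins break the peroxide down. Peroxiredoxins use a reactive cysteine that is mostly restored by thioredoxin, whereas Gpx1 is a selenoprotein that uses glutathione. HSC are known to keep low levels of reactive oxygen, and high levels are known to push them out of quiescence.

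Library totals ran from 16663445 to 23254115 counts, and 14227 genes were tested. The markers expected of HSC were all detected but at low levels: the mean for Procr was 3.89, 2.54 and 3.19 CPM (counts scaled to a common library size, with TMM factors) in young, old and treated libraries, and for Slamf1 7.71, 7.47 and 7.8 CPM. The primary granule gene Mpo, a marker of myeloid progenitors, stood at 11260.1, 16797 and 16291 CPM. The summed level of 13 granulocyte markers was 34847 to 38972 CPM in young, 53869.6 to 57142 CPM in old and 53635 to 54800.4 CPM in treated libraries. That of 13 erythroid markers was 912 to 948, 422 to 425 and 469 to 474 CPM, and that of 10 HSC markers 391 to 404, 327 to 336 and 337 to 345 CPM. Between old and young HSC, 1 of 10 HSC markers was called higher and 5 lower, and of the other lists monocyte markers had 0 higher and 7 lower of 8, megakaryocyte markers 0 and 5 of 7, B and plasma cell markers 2 and 1 of 6, T and NK cell markers 1 and 0 of 3, and stromal and endothelial markers 0 and 2 of 4 tested. None of the markers of any of the 8 cell type lists was at 0 in all libraries of a group. The Y-linked genes also separated the young libraries: Ddx3y was at 0.664 to 1.18 CPM in young libraries and at 32.3 to 44.7 CPM in old and treated ones, and Eif2s3y at 1.58 to 3.13 against 72 to 83.5 CPM. Age and apparent sex of the mice therefore cannot be told apart in any comparison with young HSC. In these bulk libraries, fewer cells of a type and less RNA per cell cannot be told apart either.

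The enzymes differed widely in abundance. On the scale of CPM per kilobase of each gene's principal transcript, Gpx1 had the highest level in young HSC at 3862 ± 246 (SD, n = 3), followed by Sod1 at 2069 ± 134. Prdx1 at 338 ± 6.9 and Prdx6 at 329 ± 1.67 came next and did not overlap, with the lowest Prdx1 library at 331 and the highest Prdx6 library at 330.0. Prdx5 was at 288 ± 15.1, Prdx2 at 255 ± 12.1 and Prdx3 at 125 ± 6.19. The endoplasmic reticulum enzyme gene Prdx4 was at 63 ± 4.04, and Cat and Sod2 were lowest at 33.8 ± 1.62 and 30.0 ± 0.479. On this scale the order in old HSC differed in the middle: Prdx5 at 372 ± 14 and Prdx6 at 369.7 ± 4.09 stood above Prdx1 at 317 ± 10, with overlapping libraries for Prdx5 and Prdx6. The treated libraries had the same order as the old ones, with Prdx5 at 369 ± 2.15, Prdx6 at 363 ± 2.4 and Prdx1 at 331 ± 1.46, none of them overlapping. These levels rest on the transcript length chosen: over all annotated exons Sod1, whose exon length is 3.97 rather than 0.641 kb, stood at 334 in young HSC and Sod2, with 10 rather than 5.86 kb, at 17.6, and Cat at 33.8 stood above Prdx4 at 29.6. The change of order in old HSC was not seen over all exons, where Prdx1 stayed above Prdx5 and Prdx6 in every group, at 239, 219 and 184 in old HSC. There Gpx1 ranked 16th to 18th of 14206 genes in the 3 groups. The 10 genes together took 0.867% ± 0.0346, 0.862% ± 0.0122 and 0.846% ± 0.00252 of all counts in young, old and treated libraries (SD, n = 3), of which Gpx1 alone took 0.432% ± 0.0258, 0.457% ± 0.00938 and 0.432% ± 0.00383.

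**Figure D1:**
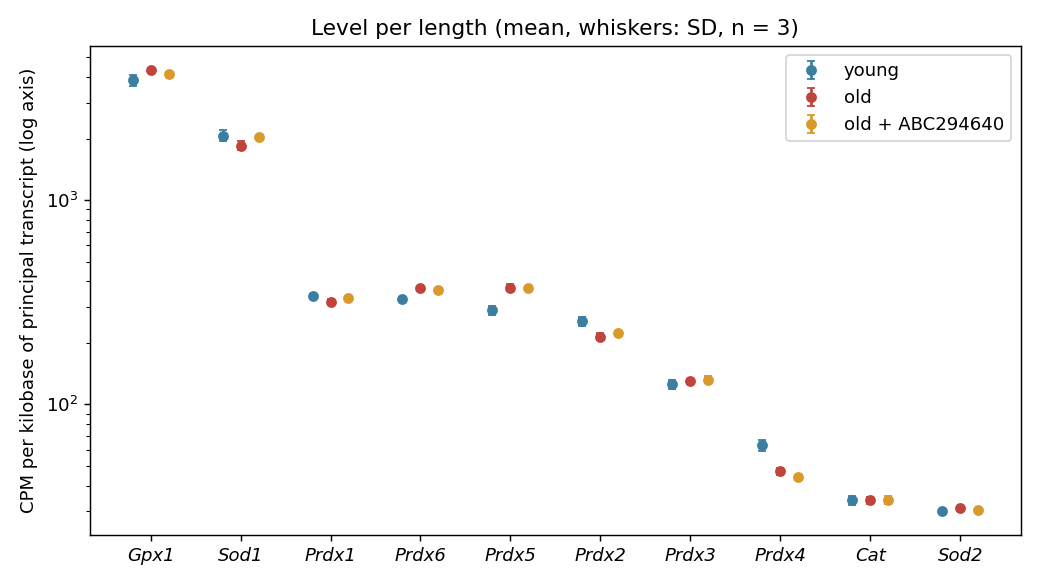
Level of each gene per kilobase of principal transcript (vertical log axis, CPM per kilobase) in young, old and ABC294640-treated old HSC; points are means and whiskers the SD of 3 libraries. Gpx1 and Sod1 lie well above the peroxiredoxins, and Cat and Sod2 are lowest, at 33.8 and 30.0 in young HSC.

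Old HSC were compared with young HSC to ask which of these enzymes change with age. Of the 10 genes, 3 rose (Prdx5, Prdx6 and Gpx1), 3 fell (Prdx2, Prdx4 and Sod1) and 4 did not pass the test (Prdx1, Prdx3, Sod2 and Cat), by edgeR's quasi-likelihood test, where a call is a p under 0.05 after Benjamini-Hochberg adjustment across the genes tested. Over all genes tested 39.4% were called, 19.6% higher and 19.8% lower, so changed genes were common in this comparison. The libraries of the groups did not overlap for 7 of the 10 genes, against 48.4% of all genes, and 7 had an unadjusted p under 0.05, against 47.8% of all genes. The changes were modest: the median size was 0.17 on the log2 scale, against 0.23 over all genes, and the median signed change was 0.024, against -0.032. The split of calls over all genes, 49.7% of them higher, moved to 31.4% with upper quartile scaling and 60.4% with DESeq2, and under upper quartile scaling Prdx6 (log2 0.08, adjusted p = 0.0868) and Gpx1 (log2 0.079, adjusted p = 0.14) were no longer called while Prdx1 was (log2 -0.18, adjusted p = 0.0011).

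**Figure D2:**
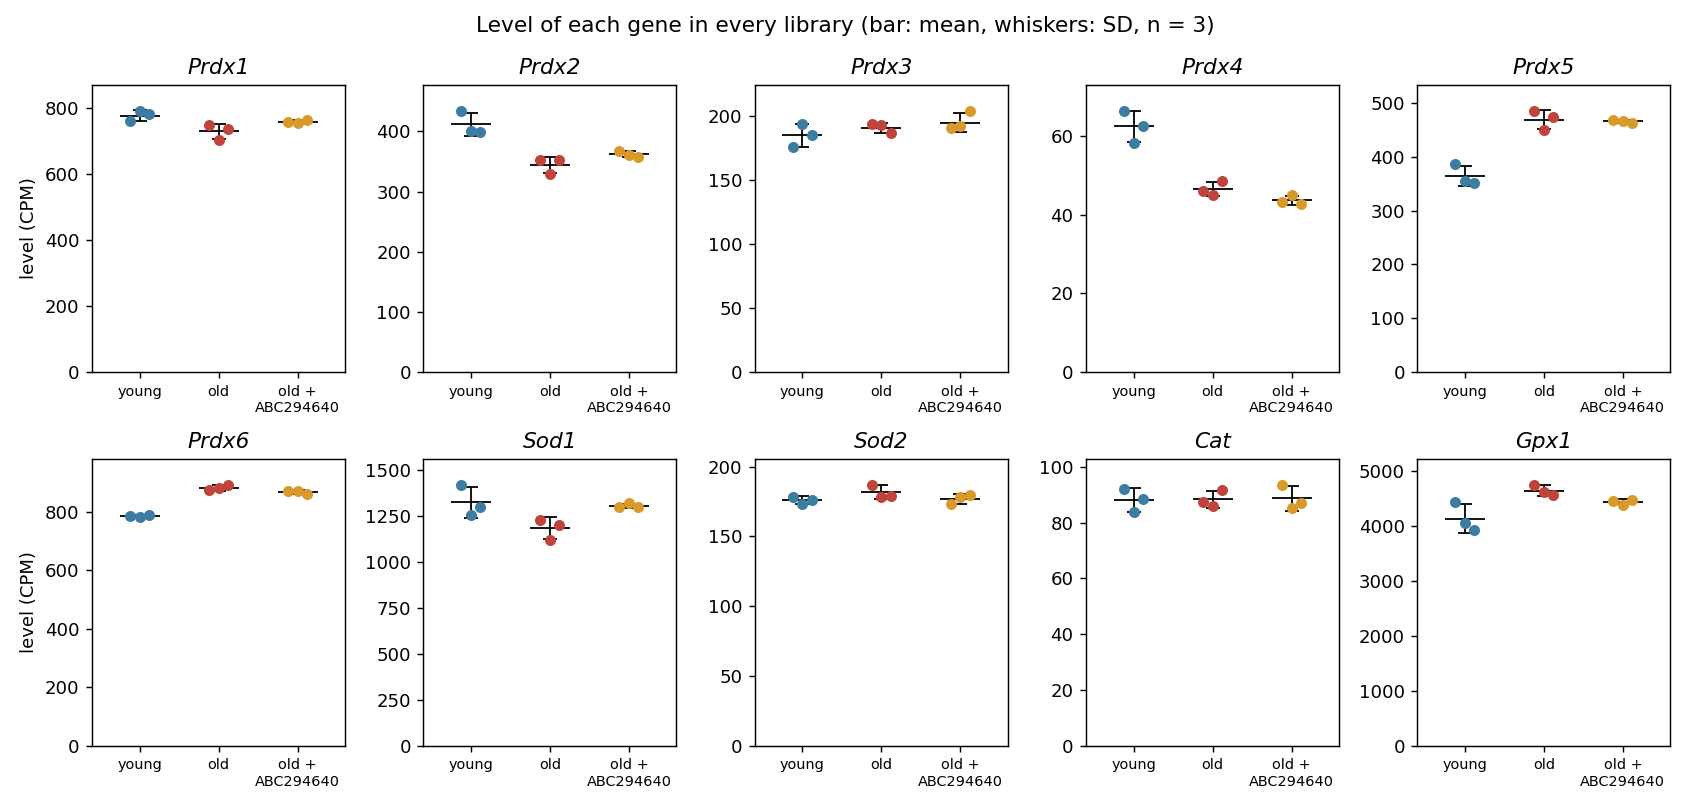
Level of each of the 10 genes (CPM, vertical axes from 0) in each library of young, old and ABC294640-treated old HSC; points are libraries, bars means and whiskers the SD of 3 libraries. Prdx4 and Prdx2 are lower, and Prdx5 and Prdx6 higher, in every old and treated library than in any young one.

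Among the cytosolic peroxiredoxins, Prdx2, the major peroxiredoxin of red cells, fell. Prdx2 (ENSMUSG00000005161, chr8:84969587-84974834, plus strand) was at 434, 401 and 400 CPM in the young libraries and at 352, 329 and 352 CPM in the old ones. All old libraries lay below all young ones, and the log2 fold change was -0.26 ± 0.046 (SE, adjusted p = 0.000147), 1.2-fold lower. The exons of Prdx2 overlap those of Rnaseh2a and Junb on the other strand, and strand was not stated to be used in counting. Neither neighbour was called: Rnaseh2a was at 102 CPM in young and 110.2 CPM in old HSC (adjusted p = 0.117), and Junb at 232 and 222 CPM (adjusted p = 0.396). The erythroid markers were lower in old HSC, with 10 of 12 tested markers called lower and 1 higher and a median log2 fold change of -1.10; their part in the lower Prdx2 was not tested. Prdx1, per length the most abundant peroxiredoxin in young HSC and a known NRF2 target (ENSMUSG00000028691, chr4:116685544-116700822, plus strand), was at 759, 790 and 780 CPM in young and at 747, 703 and 735 CPM in old libraries. The old libraries were all lower, by a small margin, and the log2 fold change of -0.092 ± 0.039 did not pass (adjusted p = 0.0714). It passed without yHSC replicate 1 (log2 -0.10, adjusted p = 0.0403) and with a stricter filter on low counts (log2 -0.14, adjusted p = 0.0079). It was further from a call with DESeq2 (log2 -0.06, adjusted p = 0.247) and with no filter on low counts (log2 -0.047, adjusted p = 0.457).

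Prdx6, the peroxiredoxin that reduces phospholipid peroxides and uses glutathione (ENSMUSG00000026701, chr1:161240112-161251219, minus strand), rose. It was at 787, 780 and 788 CPM in the young and at 873, 882 and 892 CPM in the old libraries. The groups were tight and did not overlap, and the log2 fold change was 0.17 ± 0.037 (adjusted p = 0.00113), 1.12-fold higher. The call was lost with upper quartile scaling (log2 0.08, adjusted p = 0.0868).

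Of the peroxiredoxins found in mitochondria, Prdx5 rose and Prdx3 did not pass the test. Prdx5, which is found in mitochondria, peroxisomes and the cytosol (ENSMUSG00000024953, chr19:6906697-6910106, minus strand), was at 386, 355 and 351 CPM in young and at 485, 450 and 473 CPM in old libraries. Every old library was well above every young one, and the log2 fold change was 0.37 ± 0.045 (adjusted p = 2.15e-06), 1.29-fold higher and the largest rise among the 10 genes. Its exons overlap 409 bases of Trmt112 on the other strand, and Trmt112 itself was at 52.2 ± 2.24 CPM in young and 48.1 ± 2.71 CPM in old HSC (adjusted p = 0.135). Prdx3, the matrix peroxiredoxin (ENSMUSG00000024997, chr19:60864051-60874556, minus strand), was at 176, 194 and 185 CPM in young and at 194, 193 and 187 CPM in old libraries. These overlapped, and the 95% interval of the log2 fold change ran from -0.049 to 0.15 (adjusted p = 0.42).

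Prdx4, the peroxiredoxin of the endoplasmic reticulum that takes part in oxidative protein folding (ENSMUSG00000025289, chrX:155323918-155340754, minus strand), fell most. It was at 66.3, 58.3 and 62.6 CPM in the young and at 45.9, 45 and 48.5 CPM in the old libraries. The groups were far apart for their spread, and the log2 fold change was -0.43 ± 0.06 (adjusted p = 1.09e-05), 1.34-fold lower. Of all genes tested, 28.4% had a larger change than Prdx4 and 33.2% a larger one than Prdx5. Prdx4 is X-linked, and the 530 genes tested on chromosome X were more often called lower (159) than higher (67), with a median log2 fold change of -0.16 against -0.032 over all genes. The part of sex in the lower Prdx4 was not tested.

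Among the superoxide dismutases Sod1, the copper and zinc enzyme (ENSMUSG00000022982, chr16:90220754-90226329, plus strand), fell slightly. It was at 1422, 1256 and 1300 CPM in young and at 1232, 1119 and 1203 CPM in old libraries. The groups did not overlap but came within a few percent of each other, and the log2 fold change was -0.16 ± 0.047 (adjusted p = 0.00917), 1.12-fold lower. The call was lost without oHSC replicate 2, the lowest library (log2 -0.11, adjusted p = 0.0711). Sod2, the manganese enzyme of mitochondria (ENSMUSG00000006818, chr17:13006846-13040063, plus strand), was at 178, 173 and 176 CPM in young and at 187, 178 and 179 CPM in old libraries. It did not pass (log2 0.047 ± 0.044, adjusted p = 0.417), and of its 31-base exon stretches 26.7% also occur in other genes. Such stretches were also found in called members, at 16.9% for Prdx5, 16.5% for Prdx2, 5.41% for Sod1 and 2.42% for Prdx6. In Prdx1 they made up 15.4%. The shared stretches of Prdx5 all occur in Trmt112, whose exons overlap those of Prdx5 on the other strand.

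Catalase (ENSMUSG00000027187, chr2:103453849-103485160, minus strand) was at 92.2, 83.8 and 88.6 CPM in young and at 87.3, 86 and 91.9 CPM in old libraries. The libraries overlapped throughout, and the 95% interval of its log2 fold change ran from -0.11 to 0.11 (adjusted p = 0.983). Gpx1 (ENSMUSG00000063856, chr9:108338903-108340343, plus strand) rose from 4436, 4054 and 3930 CPM in young to 4755, 4618 and 4576 CPM in old libraries. The old libraries were all higher, and the log2 fold change was 0.17 ± 0.041 (adjusted p = 0.00289), 1.12-fold higher. This separation depended on the scaling. As an unscaled share of all counts, Gpx1 took 0.46%, 0.425% and 0.41% in young and 0.465%, 0.46% and 0.447% in old libraries, which overlap. The call was lost with upper quartile scaling (log2 0.079, adjusted p = 0.14). The granulocyte markers moved the same way as Prdx5, Prdx6 and Gpx1, with 12 of 13 called higher, none lower and a median log2 fold change of 0.62; their part in these rises was not tested.

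**Figure D3:**
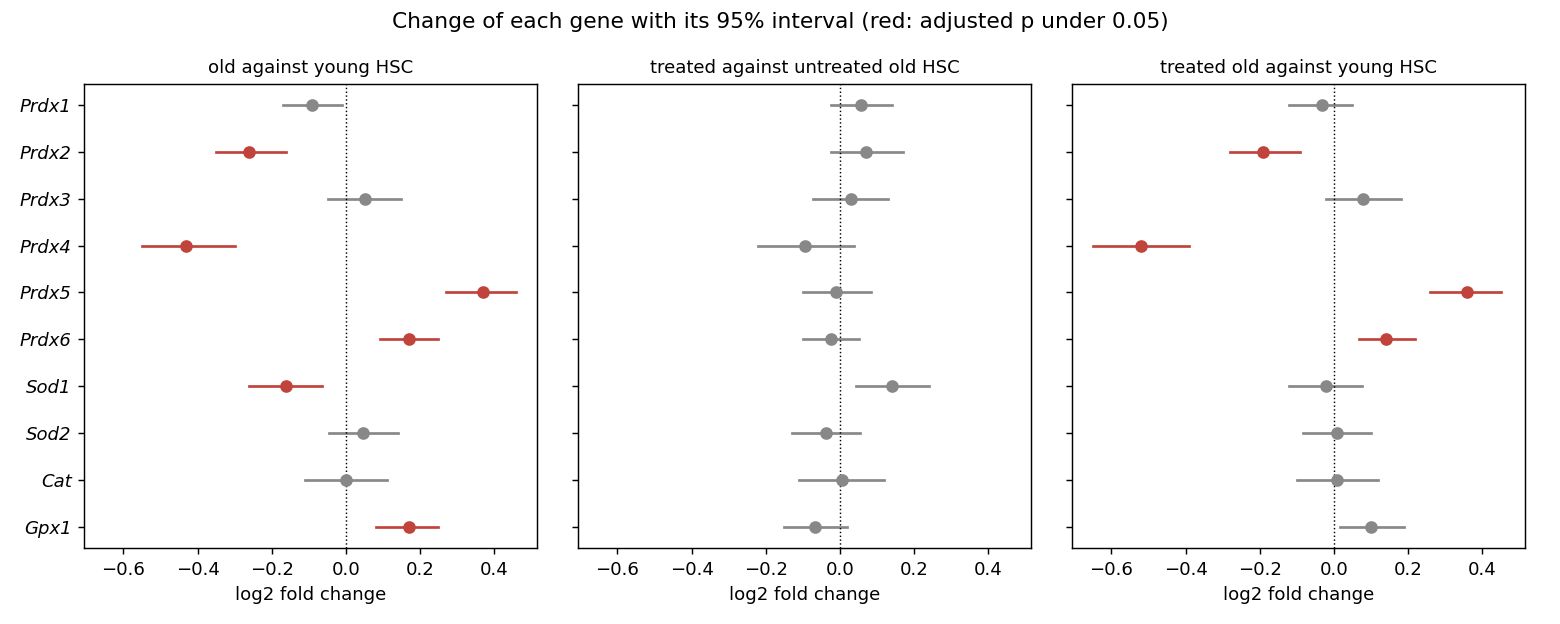
Log2 fold change of each gene (axis in log2 units) in the 3 comparisons, with 95% intervals from the fit of all 9 libraries; red points passed an adjusted p under 0.05. Prdx5 lies highest and Prdx4 lowest in the comparisons with young HSC, while the intervals for treated against untreated old HSC lie close to 0, with Sod1 at 0.14.

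Treated old HSC were compared with untreated old HSC to ask what the SphK2 inhibitor changes. None of the 10 genes was called by edgeR's quasi-likelihood test or by DESeq2, and 1, Sod1, had an unadjusted p under 0.05 by edgeR. Over all genes 1.19% were called, 0.766% higher and 0.429% lower, and 8.83% had an unadjusted p under 0.05. Transcripts of the kinases themselves were low: Sphk2, the target, was at 7.74 ± 1.35 CPM in untreated and 6.35 ± 0.278 CPM in treated HSC (adjusted p = 0.621), and Sphk1 at 8.45 ± 1.07 and 7.81 ± 0.972 CPM. These transcript levels do not measure whether the enzyme was inhibited.

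The gene closest to a call was Sod1. Its treated libraries were at 1300, 1322 and 1300 CPM, above the untreated 1232, 1119 and 1203 CPM and within the range of the young libraries. The log2 fold change of 0.14 ± 0.047 (95% interval 0.044 to 0.24) had an unadjusted p of 0.00652 and did not pass after adjustment (adjusted p = 0.235). It was called without yHSC replicate 1 (log2 0.14, adjusted p = 0.0457) and with no filter on low counts (log2 0.14, adjusted p = 0.0313). The other 9 genes had log2 fold changes from -0.093 for Prdx4 to 0.071 for Prdx2. Prdx4 was at 43.2, 44.9 and 42.6 CPM in the treated libraries, just under the untreated ones, with an interval from -0.22 to 0.038 (adjusted p = 0.74). Prdx2 was at 367, 361 and 357 CPM, just above the untreated ones (adjusted p = 0.719).

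None of the remaining genes came close to the threshold. Gpx1 was at 4462, 4389 and 4474 CPM in treated libraries, all lower than the untreated ones, with an interval from -0.15 to 0.019 (adjusted p = 0.696). Prdx1 was at 758, 755 and 762 CPM, all higher than the untreated libraries (adjusted p = 0.743), and Prdx6 at 871, 871 and 861 CPM, all lower (adjusted p = 0.924). For 6 of the 10 genes the treated and untreated libraries did not overlap, Prdx1, Prdx2 and Sod1 being higher and Prdx4, Prdx6 and Gpx1 lower, against 15.5% of all genes. The margins were small, with a median size of change of 0.048 on the log2 scale, against 0.089 over all genes. Prdx5, at 468, 466 and 463 CPM, Prdx3, at 190, 192 and 204 CPM, Sod2, at 173, 178 and 180 CPM, and Cat, at 93.6, 85.3 and 87.2 CPM, overlapped the untreated libraries.

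Treated old HSC were also set against young HSC; this comparison shares the young libraries with the first and the treated libraries with the second. Prdx5 (log2 0.36 ± 0.045, adjusted p = 3.36e-06) and Prdx6 (log2 0.14 ± 0.037, adjusted p = 0.00427) were higher in treated old than in young HSC. Prdx4 (log2 -0.52 ± 0.061, adjusted p = 1.01e-06, 1.43-fold lower) and Prdx2 (log2 -0.19 ± 0.045, adjusted p = 0.00299) were lower. Over all genes 37.6% were called, 19.1% higher and 18.5% lower, and with upper quartile scaling the share of calls that were higher moved from 50.8% to 30%. Libraries did not overlap for 4 of the 10 genes, against 48.4% of all genes, and 5 of the 10 had an unadjusted p under 0.05, against 46.2%. Sod1 was not called (log2 -0.021 ± 0.047, 95% interval -0.12 to 0.077, adjusted p = 0.757). Gpx1 missed the threshold (log2 0.10 ± 0.041, adjusted p = 0.0565) and passed it in several other settings, with an adjusted p of 0.016 by DESeq2. Its rise was smaller and further from a call with upper quartile scaling (log2 0.0065, adjusted p = 0.918) and with the stricter filter (log2 0.043, adjusted p = 0.439). Prdx6 lost its call with upper quartile scaling (log2 0.049, adjusted p = 0.304) and with the stricter filter (log2 0.086, adjusted p = 0.067), and Prdx1 gained one with upper quartile scaling (log2 -0.13, adjusted p = 0.0142). Trmt112, the neighbour that overlaps Prdx5, was lower in treated old than in young HSC (adjusted p = 0.00267). Rnaseh2a, a neighbour of Prdx2, was higher (adjusted p = 0.00703). Junb, the other neighbour of Prdx2, was not called (232 CPM in young and 212 CPM in treated HSC, log2 -0.13, adjusted p = 0.0932). The part of overlapping exons in the values of Prdx5 and Prdx2 was not tested.

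Ratios of counts within a library do not depend on how libraries are scaled. The pairs were chosen after values were seen, and with 3 against 3 libraries a two-sided exact permutation test cannot give a p under 0.1. The ratio of cytosolic Sod1 to mitochondrial Sod2 was 7.97, 7.27 and 7.4 in young, 6.58, 6.27 and 6.73 in old, and 7.53, 7.42 and 7.24 in treated libraries. The old libraries were all lower than the young and treated ones (exact p = 0.1 for each). The ratio of Prdx5 to Prdx4 was 5.82, 6.09 and 5.61 in young, 10.6, 10 and 9.74 in old, and 10.9, 10.4 and 10.9 in treated libraries. Old libraries lay far above young ones (exact p = 0.1), and treated and untreated old libraries overlapped (exact p = 0.2). The ratio of Prdx5 to Prdx3 was 1.97 ± 0.196 in young, 2.45 ± 0.107 in old and 2.39 ± 0.0994 in treated libraries, and that of Gpx1 to Cat was 46.9 ± 2.25, 52.6 ± 2.52 and 50.1 ± 2.14. Prdx1 to Prdx2 was 1.89 ± 0.123, 2.12 ± 0.0261 and 2.1 ± 0.0344. In these 3 pairs every old library exceeded every young one (exact p = 0.1), and treated overlapped untreated old libraries.

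**Figure D4:**
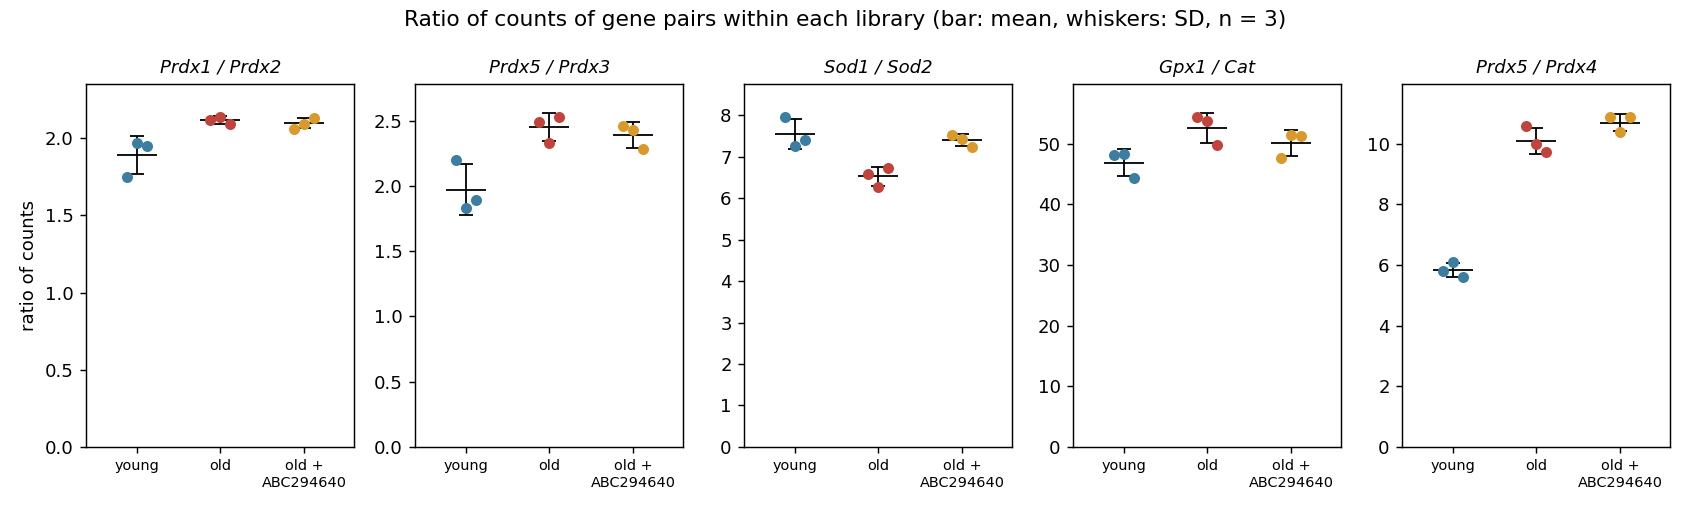
Ratio of the counts of gene pairs within each library (vertical axes from 0, no unit); points are libraries, bars means and whiskers the SD of 3 libraries. Sod1 to Sod2 is lower in old libraries than in young and treated ones, and Prdx5 to Prdx4 is higher in old and treated than in young libraries.

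The enzymes depend on partners that restore thioredoxin and glutathione, repair oxidised proteins or control their expression. Of 34 listed partner genes 33 were tested (all but Sod3); between old and young HSC 9 rose, 5 fell and 19 did not pass, with a median log2 fold change of -0.002 against -0.032 over all genes. This share called is near that over all genes tested, 39.4%, of which 19.6% were higher and 19.8% lower. Gpx3, the secreted glutathione peroxidase, was at 11.2, 9.32 and 10.4 CPM in young and 40.4, 38.2 and 39.7 CPM in old libraries. It rose 3.81-fold (log2 1.93 ± 0.079, adjusted p = 1.21e-13). Gsr, glutathione reductase, was at 256, 285 and 283 CPM in young and 511, 537 and 514 CPM in old libraries. It rose 1.9-fold (log2 0.92 ± 0.048, adjusted p = 3.94e-12), more than any of the 10 enzymes. Txnrd1, the cytosolic thioredoxin reductase, went from 58.1 to 75 CPM (log2 0.37, adjusted p = 1.48e-05). Glrx, a glutaredoxin, went from 161 to 195 CPM (log2 0.27, adjusted p = 5.18e-05), and Msrb1, which repairs oxidised methionine, from 86.8 to 108 CPM (log2 0.31, adjusted p = 0.000189). Foxo3, a transcription factor known to hold down reactive oxygen in HSC, fell from 52.9 to 40.7 CPM (log2 -0.38, adjusted p = 8.61e-05). Nfe2l2, which encodes NRF2, and Keap1, which marks NRF2 for degradation, were singled out after values were seen. Nfe2l2 rose from 108 to 127 CPM (adjusted p = 0.000577) and Keap1 fell from 17.3 to 13.2 CPM (adjusted p = 0.0105).

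In treated old against young HSC 10 partner genes were higher, 3 lower and 20 not called, with a median log2 fold change of 0.071 against -0.018 over all genes. The share called is again near that over all genes tested, 37.6%, of which 19.1% were higher and 18.5% lower. Gpx3 (log2 1.92, adjusted p = 1.57e-13), Gsr (log2 0.76, adjusted p = 9.6e-11), Msrb1 (log2 0.39, adjusted p = 1.41e-05) and Glrx (log2 0.23, adjusted p = 0.000353) were again higher. Park7, which protects cells from oxidants, was higher (log2 0.24, adjusted p = 0.000798) and Foxo3 lower (log2 -0.31, adjusted p = 0.00067). Between treated and untreated old HSC edgeR called 0 of 33 partner genes, with 4 at an unadjusted p under 0.05, and DESeq2 called 2, Gsr and Txn1. Thioredoxin, Txn1, the partner that restores peroxiredoxins, was at 698, 656 and 746 CPM in untreated and 814, 804 and 791 CPM in treated libraries. The groups did not overlap (log2 0.20 ± 0.049, adjusted p = 0.0517 by edgeR and 0.0118 by DESeq2). With each library left out, the adjusted p of Txn1 by edgeR ran from 0.00898 (without yHSC replicate 1) to 0.296 (without oHSC_ABC replicate 1). Gsr was at 521 ± 14.3 CPM in untreated and 466 ± 16.6 CPM in treated HSC (log2 -0.16 ± 0.047, adjusted p = 0.141 by edgeR). Txn1 and Gsr were named after their values were seen.

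**Figure D5:**
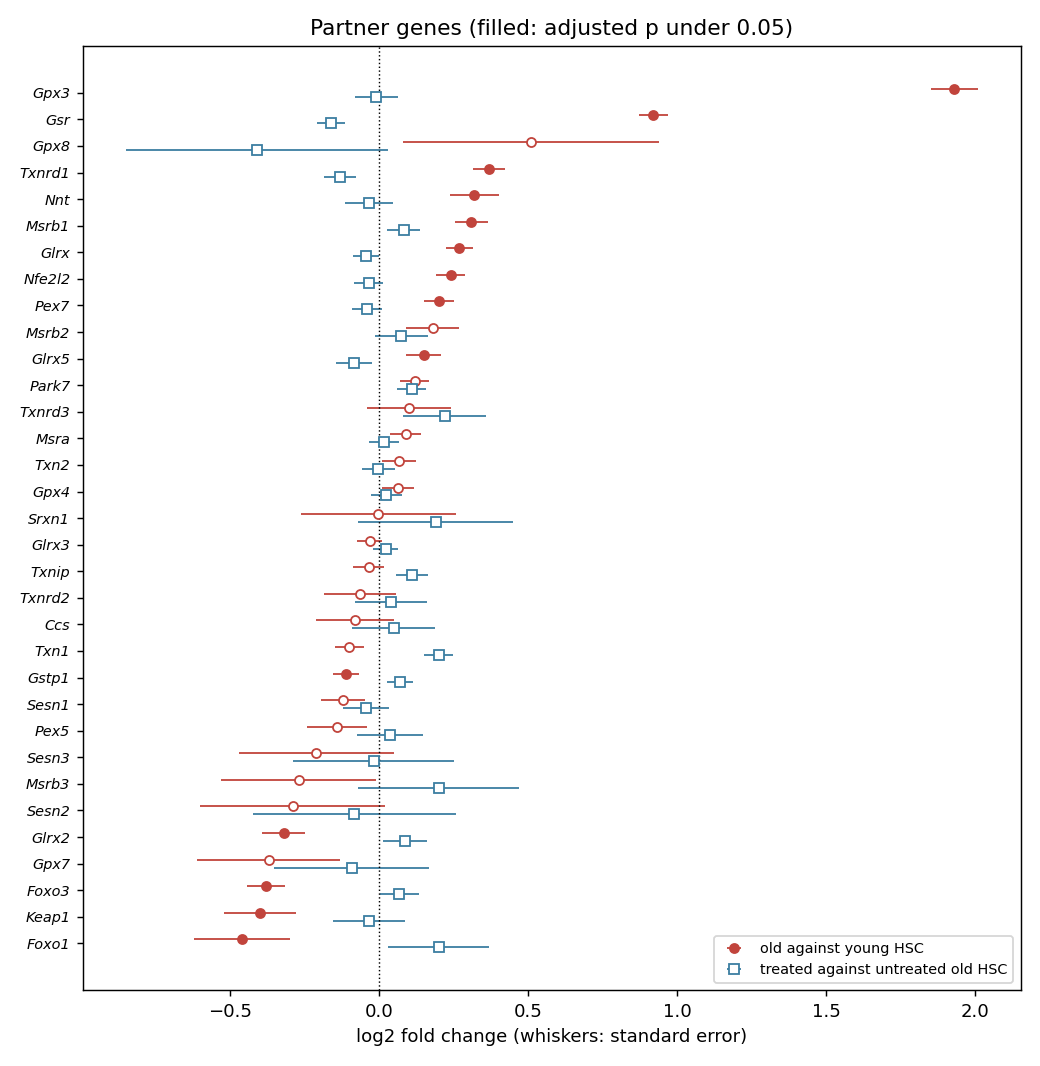
Log2 fold change of each tested partner gene (axis in log2 units) in old against young and in treated against untreated old HSC; whiskers are standard errors and filled points passed an adjusted p under 0.05. Gpx3 at 1.93 and Gsr at 0.92 lie far from the rest in old against young HSC, and edgeR's quasi-likelihood test called no partner gene between treated and untreated old HSC, where DESeq2 called 2.

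Stretches of up to 150 bases upstream of the start sites of the genes that differ most in motif content were taken from RefSeq on build GRCm38.p6 and clear of annotated exons. Promoter windows were found for 9 of the 10 genes. Motifs were searched on both strands in the 250 bases before the start site: TGACNNNGC, the core of the antioxidant response element bound by NRF2, GTAAACA, bound by FoxO factors, and GGGCGG, the GC box bound by Sp1; matches, on either strand, are in capitals and overlapping matches are run together. Prdx1 and Sod1 are shown for the NRF2 core match, and Prdx4 and Sod2 for repeated GC boxes. For Prdx4 and Sod2 the RefSeq start site used lies downstream of the annotated gene start, so their stretches fall inside the gene spans given above.
Prdx1 chr4:116685394-116685543 plus strand: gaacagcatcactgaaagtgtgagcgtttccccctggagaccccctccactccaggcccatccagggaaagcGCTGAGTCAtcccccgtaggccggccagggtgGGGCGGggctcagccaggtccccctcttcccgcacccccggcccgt
Sod1 chr16:90220604-90220753 plus strand: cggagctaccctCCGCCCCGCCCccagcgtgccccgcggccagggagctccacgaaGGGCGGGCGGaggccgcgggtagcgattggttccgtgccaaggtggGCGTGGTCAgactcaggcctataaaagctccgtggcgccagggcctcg
Prdx4 chrX:155338475-155338624 minus strand: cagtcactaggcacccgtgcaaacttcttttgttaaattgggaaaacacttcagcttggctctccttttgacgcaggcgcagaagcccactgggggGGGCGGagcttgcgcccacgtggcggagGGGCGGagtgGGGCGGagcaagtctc
Sod2 chr17:13007667-13007816 plus strand: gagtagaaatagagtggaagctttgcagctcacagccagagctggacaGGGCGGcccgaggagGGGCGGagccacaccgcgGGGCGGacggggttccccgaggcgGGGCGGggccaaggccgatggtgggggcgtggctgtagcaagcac
The NRF2 core was found in Prdx1 and Sod1 only, 22.2% of 9, against 11.5% of 27025 genes with a promoter in the table. The GC box was found in 7 of the 9 (all but Prdx2 and Gpx1), 77.8%, against 35.4% of genes. It was as common in the partner genes, at 75.9% of the 29 with a promoter. The FoxO motif was found in none of the 9, against 3.54% of genes and 6.9% of those partner genes. Prdx4 held 3 GC boxes and Sod1 and Sod2 held 4 each, in Sod1 as overlapping pairs. Any link between these matches and the changes in level was not tested. A match is a description of letters and not a bound site.

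By the F test over all 3 groups Prdx4 had the smallest p of the 10 genes (adjusted p = 1.1e-06). Among 7872 genes with a mean of at least 10 CPM, the 5 whose log2 level followed that of Prdx4 most closely over the 9 libraries were Tmem42 (Pearson r = 0.982), Ighm (0.981), Hmgb3 (0.978), Ass1 (0.977) and Rdm1 (0.977). All 5 were highest in young HSC: Ighm, the immunoglobulin mu heavy chain, was at 95.7 ± 6.71 CPM in young, 60.6 ± 0.763 CPM in old and 59.4 ± 2 CPM in treated libraries. Ass1, an arginine synthesis enzyme, was at 119 ± 5.84, 94.4 ± 4.55 and 93.2 ± 2.27 CPM. The 9 points fall in the same 3 groups for every gene, and 257 genes had an r above 0.9.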

How the data were processed

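RNA was made into libraries by a low-input protocol from 1500 sorted cells with 12 cycles of PCR, per the labels' protocols. The deposited table holds expected counts per gene, of which 56% of the non-zero values were whole; the sources used here do not say which step gave fractions. Per the submitters' processing notes, the authors used STAR 2.6.1d, Trim Galore 0.6.2, edgeR 3.24.3, HTSeq 0.10.0 and the build mm10, in no stated order. All 9 values were whole for Prdx3, Prdx4, Cat and Gpx1, the 4 members with no 31-base stretch shared with another gene, and at most 2 of 9 for the other members.

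Counts were rounded and tested with edgeR 4.0.16 in R 4.3.3 (TMM, default filter by group, quasi-likelihood test, 1 fit of 9 libraries with group as the only term), with p-values adjusted by Benjamini-Hochberg over 14227 genes and a threshold of 0.05. Levels are CPM with TMM-scaled library sizes. Standard errors reflect the spread between libraries as well as the counts per library, 16663445 to 23254115. Reads amplified without molecular identifiers are not independent molecules. Of 23317 rows, 23289 matched GENCODE M21 (GRCm38) by identifier. Rows of pseudogenes named after members held at most 0.379% of a member's counts. The script was tested on simulated data. Other settings were RLE and upper quartile scaling, DESeq2 1.42.0, no filter, a stricter filter (5 CPM in 3 libraries), 2 groups alone, a replicate block, each library left out, and thinned counts; leaving out sex chromosome genes was added after seeing the data. Replicate numbers were not used as pairs in the main fit. Deviations of same-numbered libraries correlated by -0.0808 to 0.132 over 9 pairs, and those of differently numbered libraries by -0.0964 to 0.0723. Same-numbered young and old libraries were at 0.0628, 0.132 and 0.0636, above the differently numbered ones of these groups (at most 0.0351). Same-numbered pairs with a treated library were all negative. These values do not settle whether libraries were paired. Members, lists and tests were chosen with earlier results of these data known. Named genes were the 10 members, up to 6 called partner genes with the smallest p per comparison, the 5 genes most like the member with the smallest F test p, the sphingosine kinases, Y-linked genes and cell type markers. Xist was not analysed here.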

Additional observations from a re-analysis of the deposited data

How the results depend on the processing

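Of the members' log2 fold changes under settings that leave out no library, 238 kept direction and side of the threshold, 19 turned direction, 9 gained a call and 4 lost one; with a library left out, the numbers were 252, 10, 7 and 1. Prdx2, Prdx4 and Prdx5 kept their calls in both comparisons with young HSC in every setting run. The causes of the changes below were not tested.

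In old against young HSC, upper quartile scaling gave 1823 genes higher and DESeq2 1844 lower, against 2788 and 2818. In treated old against young HSC, upper quartile scaling gave 1633 genes higher, against 2722, and the stricter filter, which tests fewer genes, 1732 lower, against 2633. In treated against untreated old HSC, with 170 genes called (109 higher, 61 lower), no filter gave 333 (219 higher, 114 lower) with 1 member and 2 partner genes, and the 2 groups alone gave 260 (164 higher, 96 lower) with 2 partner genes. Partner genes called there were 2 with DESeq2, and 1 each with thinned counts and without sex chromosome genes. With the replicate block the members called were 6, 0 and 5 in the 3 comparisons, genes called were 5582, 195 and 5355, 1 partner gene was called between treated and untreated, and Gpx1 gained its call in treated old against young HSC (adjusted p = 0.0357).

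Values that turned direction were all uncalled. Upper quartile scaling gave Prdx3 -0.038, Sod2 -0.042 and Cat -0.087 in old against young, Cat -0.00026 in treated against untreated, and Prdx3 -0.015, Sod2 -0.086 and Cat -0.087 in treated against young. The stricter filter gave Cat -0.043, -0.0081 and -0.051 in the same order of comparisons and Sod2 -0.049 in the last. Thinning gave Cat -0.0083 in old against young and -0.00065 in treated against young. Cat was -0.0026 with RLE and -0.0021 with DESeq2 in treated against untreated, and -0.0016 without sex chromosome genes in old against young. In treated against young, Sod1 was 0.003 with DESeq2 and 0.025 with no filter, and Prdx1 was 0.013 with no filter.

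With each library left out, old against young HSC gave 4791 to 5723 genes (2522 to 3005 higher, 2155 to 2816 lower), 5 to 7 members and 11 to 18 partner genes. Treated old against young HSC gave 4508 to 5608 genes (2371 to 2962 higher, 2054 to 2683 lower), 4 to 5 members and 11 to 17 partner genes. Treated against untreated gave 48 (without oHSC_ABC replicate 2) to 286 genes (without yHSC replicate 1), 17 to 175 higher, 31 to 111 lower, 0 to 1 members and 0 to 2 partner genes; it gave 91 without oHSC replicate 1, 77 without oHSC replicate 2 and 69 without oHSC_ABC replicate 1. Cat ranged from -0.022 to 0.042, -0.038 to 0.03 and -0.021 to 0.049 in the 3 comparisons. Between treated and untreated, Prdx5 ranged from -0.041 to 0.016 and Prdx3 from -0.0026 to 0.043, and Sod1 in treated against young from -0.052 to 0.034.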
